A study of Mus musculus with 6 samples.

Results

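Open chromatin was profiled by ATAC-seq, in which the Tn5 transposase inserts sequencing adapters into accessible DNA, in the quadriceps femoris, the large extensor muscle at the front of the thigh, of mice. There were 3 Prr14-KO libraries (replicates 4, 5 and 7) and 3 Prr14-WT libraries (replicates 3, 4 and 8), called KO and WT here, all made from nuclei of frozen muscle. The sources used here do not give age, sex, strain or which part of Prr14 was deleted. Whether each library is a separate animal is not stated either, so the p-values measure the spread between these libraries, which may be technical in part. The regions described here are 7416 of the 75134 peaks in the authors' deposited list, namely those on chromosomes 1 to 19 that the list annotates as intergenic, that lie over 50 kb and up to 200 kb from the start of their annotated gene, and that are under 2500 bases wide. They are called distal intergenic peaks below. Coordinates are those of the deposited list on GRCm38, and the annotated gene is the one to whose start the list measures the distance, which does not show that the peak acts on that gene.

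Intergenic open chromatin this far from a start is where many enhancers lie, elements that bind transcription factors and can raise transcription of a gene across long stretches of DNA by looping to its promoter. In muscle, factors of the MyoD and MEF2 families bind such elements together with factors shared by many tissues, such as AP-1, TEAD and MAF proteins. PRR14, the protein missing in the KO mice, tethers heterochromatin to the nuclear lamina, the protein meshwork under the inner nuclear membrane, where gene-poor DNA is often found.

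The deposited annotation called these peaks intergenic, but RefSeq's annotation of the same genome (GRCm38.p6) lists further transcripts there. Of 7105 distal intergenic peaks on the 18 autosomes with RefSeq starts in the set used here, 3985 (56.1%) lay within 50 kb of a start in that set. For 168 (2.36%) a protein-coding start of the set lay within 50 kb. The set lacks some starts, so both shares, and the count of start windows below, are lower bounds. For the peak 53.1 kb from the annotated start of Ccdc25, the nearest start in the set was 1.27e+06 bases away. Of all 7416 peaks, 2028 (27.3%) overlapped a RefSeq gene span, of which 1721 overlapped a long non-coding RNA and 208 a protein-coding gene. RefSeq start windows, running from 250 bases before to 50 bases after an annotated start, lay whole inside 148 of the peaks, and 13 of those 148 were called different between KO and WT, where 7.01% of all tested peaks were. The windows below are shown because they are the parts of called peaks whose sequence is annotated as a start. They come from 2 of the peaks that were higher in KO (log2 fold changes of 0.91 and 0.99), then from the 3 with the smallest p among those that were lower in KO (-1.72, -0.90 and -1.03), and last from the peak at the start of Mir1a-1hg, the host transcript of the muscle microRNA miR-1, which did not pass the test (-0.05). Each is printed 5′ to 3′ on the strand of its transcript, in lower case before the annotated start and in capitals from the start on.

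2310043L19Rik (chr1:177642894-177643193, minus strand): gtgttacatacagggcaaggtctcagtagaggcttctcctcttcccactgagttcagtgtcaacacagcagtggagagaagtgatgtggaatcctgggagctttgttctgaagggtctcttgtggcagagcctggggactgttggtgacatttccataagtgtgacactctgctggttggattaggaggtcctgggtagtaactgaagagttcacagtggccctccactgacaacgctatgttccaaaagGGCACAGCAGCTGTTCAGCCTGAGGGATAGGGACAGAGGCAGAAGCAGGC
Gm31037 (chr8:115856003-115856302, plus strand): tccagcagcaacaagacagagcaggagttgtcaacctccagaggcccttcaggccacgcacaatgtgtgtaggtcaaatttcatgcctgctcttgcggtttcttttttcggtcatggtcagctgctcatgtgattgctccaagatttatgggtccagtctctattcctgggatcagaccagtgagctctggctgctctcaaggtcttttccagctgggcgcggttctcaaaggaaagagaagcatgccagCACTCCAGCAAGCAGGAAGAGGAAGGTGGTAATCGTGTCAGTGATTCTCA
Gm34576 (chr3:65449182-65449481, plus strand): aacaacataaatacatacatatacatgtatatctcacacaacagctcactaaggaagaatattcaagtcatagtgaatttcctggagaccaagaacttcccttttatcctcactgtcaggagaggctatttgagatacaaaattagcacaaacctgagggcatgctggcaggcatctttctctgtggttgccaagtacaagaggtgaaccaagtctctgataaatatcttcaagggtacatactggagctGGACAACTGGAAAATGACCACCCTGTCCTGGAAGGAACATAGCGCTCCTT
Gm38791 (chr6:37714405-37714704, plus strand): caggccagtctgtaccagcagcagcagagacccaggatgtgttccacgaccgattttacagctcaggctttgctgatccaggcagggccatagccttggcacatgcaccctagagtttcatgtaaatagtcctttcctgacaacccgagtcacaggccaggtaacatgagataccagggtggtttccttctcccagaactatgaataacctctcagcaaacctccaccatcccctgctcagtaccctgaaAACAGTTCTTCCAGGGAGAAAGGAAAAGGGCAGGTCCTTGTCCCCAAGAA
Gm28979 (chr9:101341944-101342243, plus strand): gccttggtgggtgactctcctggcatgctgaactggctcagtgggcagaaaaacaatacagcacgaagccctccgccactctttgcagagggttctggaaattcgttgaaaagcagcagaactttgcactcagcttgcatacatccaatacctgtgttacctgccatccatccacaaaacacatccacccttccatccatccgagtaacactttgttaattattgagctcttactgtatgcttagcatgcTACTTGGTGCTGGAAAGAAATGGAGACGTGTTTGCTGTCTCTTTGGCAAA
Mir1a-1hg (chr2:180385354-180385653, plus strand): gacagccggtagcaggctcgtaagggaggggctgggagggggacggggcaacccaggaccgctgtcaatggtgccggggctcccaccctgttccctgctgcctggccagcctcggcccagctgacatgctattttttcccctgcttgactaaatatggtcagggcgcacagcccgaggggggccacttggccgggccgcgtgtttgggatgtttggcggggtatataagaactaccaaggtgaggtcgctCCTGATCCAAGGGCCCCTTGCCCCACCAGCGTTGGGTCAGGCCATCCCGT

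The windows of 2310043L19Rik and Gm31037 lie in peaks annotated to 1700016C15Rik and Maf, and those of Gm34576, Gm38791 and Gm28979 in peaks annotated to Ssr3, Trim24 and Ppp2r3a. Motifs were searched on both strands and counted from 1 at the 5′ end of the window. CAGCTG, a form of the E-box that MyoD-family factors bind, stood at positions 258 to 263 of the 2310043L19Rik window, at 119 to 124 and 211 to 216 of the Gm31037 window and at 118 to 123 of the Mir1a-1hg window. None of the motifs searched (that E-box, the TEAD core CATTCC, the AP-1 site TGANTCA, the MAF half-site TGCTGAC and the MEF2 consensus) was found in the windows of Gm34576, Gm38791 and Gm28979, which says only that these letters are not there. Among the 173 start windows inside distal intergenic peaks, 23.7% held CAGCTG, 20.8% CATTCC, 14.5% TGANTCA, 5.78% TGCTGAC and 3.47% the MEF2 consensus. These 173 windows lie in 148 peaks and belong to 151 genes, so windows of 1 peak can overlap and share a match. The shares over all 32851 windows of the same length were 16.3% for CAGCTG, 14.7% for CATTCC, 7.81% for TGANTCA, 4.67% for TGCTGAC and 3.19% for the MEF2 consensus. These matches are descriptions of letters, and binding was not measured.

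The distal intergenic peaks changed in both directions, and more of them were lower than higher in KO. Of the 7236 with enough counts to be tested, 207 (2.86%) were higher in KO, where 2.77% of all 73896 tested peaks were higher, and 374 (5.17%) were lower, where 4.23% of all tested peaks were lower. The other 6655 did not pass (edgeR's quasi-likelihood test, Benjamini-Hochberg adjusted p below 0.05 over all tested peaks), and 180 had too few counts to be tested. The share called higher was thus near that of all peaks, and the share called lower was above it. The median log2 fold change of KO over WT was -0.08 over the tested distal intergenic peaks and -0.01 over all tested peaks. Groups did not overlap, with all KO libraries above all WT libraries, in 630 peaks (8.71%, against 9.17% of all tested peaks), and with all KO libraries below in 983 (13.6%, against 11.2% of all tested peaks). The called peaks were large changes on both sides, with a median log2 fold change of 1.01 (0.56 to 2.27) among the higher ones, 107 of which were over 2-fold, and of -1.07 (-2.68 to -0.55) among the lower ones, 214 of which were over 2-fold.

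The balance between losses and gains depended on the scaling and on 1 library. Lower peaks made up 64.4% of the calls, but 34.6% of them (197 higher and 104 lower) when the authors' own library factors replaced TMM scaling, which moved the median of all peaks to 0.19. That was 2.72% higher and 1.44% lower of the distal intergenic peaks, against 2.19% and 1.02% of all tested peaks. Under those factors the median of the distal intergenic peaks was 0.13, so that they again lay below the median of all peaks. The authors' factors ran only from 0.977 (KO replicate 7) to 1.035 (KO replicate 5). Total counts in peaks varied more, from 7608514 (WT replicate 8) to 12061822 (KO replicate 5). Which scaling suits these libraries better was not tested. Without WT replicate 4 there were 192 higher (2.61%) and 186 lower peaks (2.53%), so that lower peaks were 49.2% of the calls. Among all tested peaks 2.99% were higher and 1.89% lower in that fit. No peak was called in the opposite direction under any of the 12 alternatives.

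In whole muscle, fewer nuclei of a cell type and less accessibility per nucleus cannot be told apart. Of 17 muscle fibre markers, 16 had a promoter peak, which summed to 1583 to 1671 CPM in KO and 1400 to 2223 CPM in WT, while of 5 liver markers 1 had one (Apoa1, 9.69 to 13.6 CPM in KO and 10.6 to 16 CPM in WT), with Alb, Ttr, Serpina1a and Cyp2e1 without one. Macrophage markers had a promoter peak in 3 of 13 (68.9 to 75 CPM summed in KO and 67.8 to 73.3 CPM in WT), with Adgre1, Csf1r and Ptprc without one. The summed promoter levels of KO and WT overlapped for each of the cell type lists, and the part of cell type shares in the calls was not tested.

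**Figure D1:**
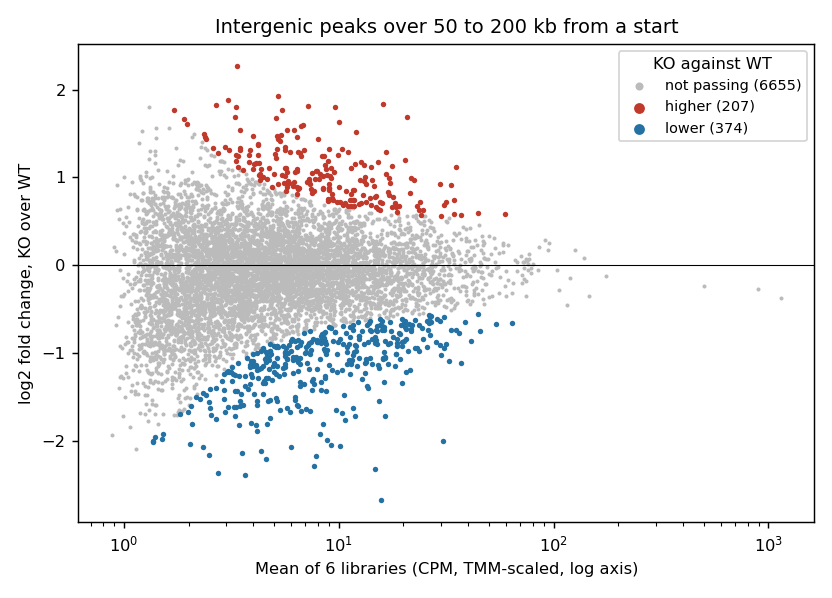
Log2 fold change of KO over WT (vertical axis) against mean level over the 6 libraries (horizontal axis, log scale, CPM scaled with TMM) for the 7236 tested distal intergenic peaks, 1 point each. The 374 peaks lower in KO (blue) reach -2.68 and the 207 higher ones (red) reach 2.27, while most of the peaks with the highest levels lie near 0.

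The share of the signal that lay in the distal intergenic peaks did not pass the test between groups. They took 5.76%, 5.66% and 5.72% of peak counts in KO replicates 4, 5 and 7, against 5.95%, 5.72% and 5.99% in WT replicates 3, 4 and 8. The KO mean of 5.71% ± 0.0487 lay 0.171 percentage points under the WT mean of 5.88% ± 0.144 (SD, n = 3 each), and WT replicate 4 lay within the KO range (exact permutation test, two-sided, p = 0.3). Set against other intergenic peaks under the same width limit and on the same chromosomes, the distal peaks lay between those nearer to and those farther from a start. Widths were not matched. Tested peaks had a median width of 661 bases within 50 kb, 629.5 in the distal set and 531 beyond 200 kb. Their log2 ratio to intergenic peaks within 50 kb was -0.934 ± 0.0249 in KO and -0.861 ± 0.0433 in WT (SD, n = 3 each), a difference of -0.07, with 1 WT library below the highest KO library (exact permutation p = 0.2). Their log2 ratio to intergenic peaks beyond 200 kb was 1.84, 1.85 and 1.79 in the KO libraries, against 1.66, 1.74 and 1.64 in the WT libraries. Every KO library was above every WT library there, a difference of 0.15 (exact permutation p = 0.1, the smallest that 3 against 3 can give, and 0.267 adjusted over the 4 measures). The log2 ratio to promoter peaks within 1 kb of a start differed by -0.04 (exact permutation p = 0.2), and the share of counts in those promoter peaks was 45.8% to 48.4% in KO and 45.0% to 48.1% in WT.

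**Figure D2:**
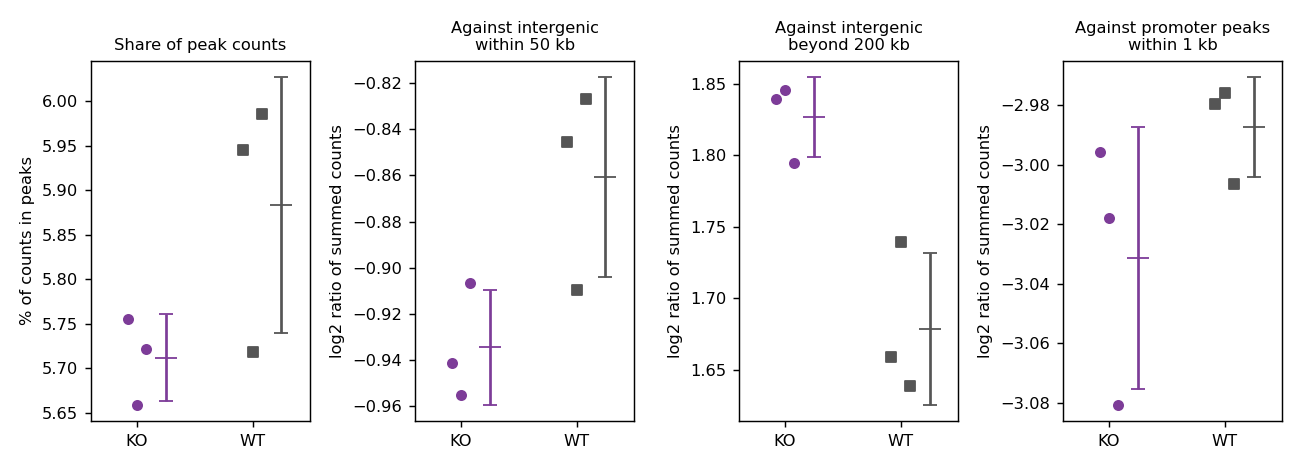
The summed signal of the distal intergenic peaks in each library, as a share of counts in all peaks and as the log2 ratio to 3 other classes of peak, with KO on the left of each panel and WT on the right. Points are libraries, and bars beside them give the mean and SD of 3 libraries. The vertical axes do not start at 0. The groups do not overlap in the third panel, the ratio to intergenic peaks beyond 200 kb.

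With distance, losses became more frequent and gains slightly less so. Among distal intergenic peaks over 50 to 100 kb from the start, 121 were higher and 193 (4.72%) lower of 4092 tested, with a median log2 fold change of -0.06. Over 100 to 150 kb there were 55 higher and 100 (5.22%) lower of 1914, with a median of -0.10, and over 150 to 200 kb 31 higher and 81 (6.59%) lower of 1230, with a median of -0.12. These bands lie between the intergenic peaks within 50 kb, of which 3.62% were higher and 3.82% lower (median -0.03), and those beyond 200 kb, of which 1.35% were higher and 7.47% lower (median -0.22). The order of the medians also stood among peaks of like level. At 10 to 20 CPM, 100 of 999 distal intergenic peaks were lower in KO, against 7.68% of the peaks within 50 kb and 22.6% of those beyond 200 kb. Where the nearest start in the RefSeq set used, which lacks some starts, was also over 50 kb away, 72 peaks were higher and 196 (6.50%) lower of 3016. Where a RefSeq start lay within 50 kb, 130 were higher and 161 (4.11%) lower of 3920.

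**Figure D3:**
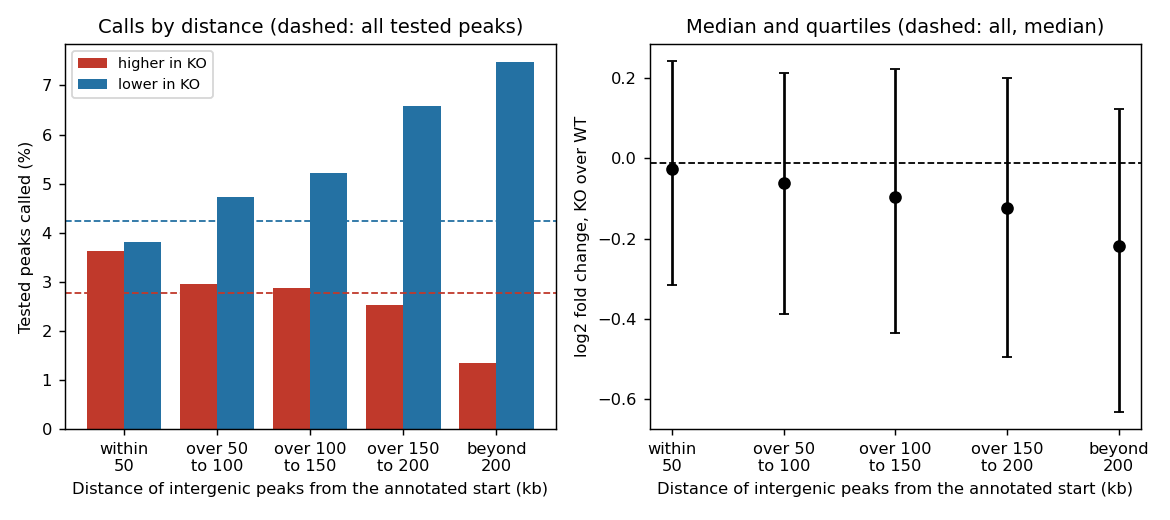
Left, share of tested intergenic peaks called higher (red) and lower (blue) in KO by distance from the annotated start in kb, with dashed lines at the shares of all tested peaks, 2.77% and 4.23%. Right, median log2 fold change of KO over WT with quartiles for the same classes. The 3 middle classes are the distal intergenic peaks, whose medians are -0.06, -0.10 and -0.12.

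Upstream peaks held more losses than downstream ones, with 104 higher and 237 lower (6.13%) of 3865 upstream and 103 higher and 137 lower (4.06%) of 3371 downstream. Wider and stronger peaks were called more often. In the lowest 20% of levels 3 peaks were higher and 7 lower of 1304 tested, and in the highest 20% 76 were higher and 147 lower of 1483. Called peaks had a median width of 842 bases among those higher and 945 among those lower, against 606 among those that did not pass. By chromosome, lower calls outnumbered higher ones 27 to 5 of 353 tested on chromosome 16 (7.65% and 1.42%) and 42 to 16 of 601 on chromosome 1 (6.99% and 2.66%). Chromosome 8 had 11 higher and 6 lower of 330 (3.33% and 1.82%). Over all tested peaks 2.77% were higher and 4.23% lower. Of the lower calls on chromosome 16, 5 were annotated to Nrip1 and 5 to Trp63. The share lower was highest on chromosome 7, with 22 lower (8.70%) and 8 higher (3.16%) of 253 tested. Chromosomes 2, 7, 18 and 19 also had more lower calls per higher call than chromosome 1. Counts for most of the 19 chromosomes are not given here.

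The 10 peaks with the smallest p among those higher in KO kept their call under all 12 alternatives. The first lay 101 kb upstream of Klf13 (chr7:64039659-64041050), which encodes a Krüppel-like zinc finger factor. It had 23.2, 29.2 and 22.9 CPM in KO replicates 4, 5 and 7, against 5.34, 7.17 and 8.81 CPM in WT replicates 3, 4 and 8, where CPM are counts per 1000000 counts in peaks, scaled with TMM. Its lowest KO library was over 2-fold above its highest WT library, and its log2 fold change was 1.83 (SE 0.22, adjusted p = 1.16e-13). The second, 58.7 kb upstream of Ywhaz, which encodes a 14-3-3 adaptor protein (chr15:36854909-36856297), had 37.2, 31.6 and 26.9 CPM in KO and 8.63, 10.1 and 10.9 CPM in WT. Its log2 fold change was 1.69 (SE 0.21) at an adjusted p of 4.67e-13, and a further peak on chromosome 15, 68.1 kb upstream of Grhl2, a grainyhead-like factor known from epithelia, had one of 1.82 (SE 0.27, adjusted p = 1.00e-08).

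The strongest of these 10 peaks in level was annotated to Nfil3, a basic leucine zipper repressor linked to the circadian clock. It had 46.2, 51.6 and 46.1 CPM in KO, against 17.7, 20.9 and 27.9 CPM in WT (log2 fold change 1.12, SE 0.19, adjusted p = 4.86e-07). The peak annotated to Ptpru, a receptor tyrosine phosphatase, had 29.6, 27.3 and 27.7 CPM in KO, against 11.4, 10.4 and 15.3 CPM in WT. The KO libraries of that peak lay close together and all above the WT ones. Further ones were annotated to Tpra1 (log2 fold change 1.80), Gm11077 (1.63), Tmem114 (1.92) and Ccdc25 (1.29). Every KO library lay above every WT library in all 10 peaks, as the rule that chose them required. Among the annotated genes named here, Klf13, Ywhaz, Tpra1, Ccdc25, Nfil3 and Ptpru had a tested promoter peak, and none of those promoter peaks passed the test.

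With TMM scaling the losses reached further than the gains, with log2 fold changes down to -2.68 and up to 2.27. The authors' factors moved the median of all peaks to 0.19, so this difference in reach can depend on the scaling. The largest loss by p and by size lay 71.8 kb upstream of Kirrel3, which encodes an immunoglobulin-type adhesion protein of cell contacts (chr9:34413350-34414851). It had 4.70, 3.61 and 4.48 CPM in KO, against 22.2, 34.4 and 24.8 CPM in WT. Its highest KO library was far below its lowest WT library, and its log2 fold change was -2.68 (SE 0.23, adjusted p = 4.63e-27). The peak annotated to Fbxl4, which encodes an F-box protein of mitochondria (chr4:22237017-22238455), had 4.49, 4.19 and 6.22 CPM in KO, against 26.7, 28.1 and 19.2 CPM in WT (log2 fold change -2.32, SE 0.23, adjusted p = 1.87e-20). The peak annotated to Slc7a11, the cystine and glutamate exchanger (chr3:50609397-50610571), had 2.92, 2.22 and 2.74 CPM in KO, against 12.8, 16.1 and 9.07 CPM in WT (log2 fold change -2.28, SE 0.27, adjusted p = 1.05e-13). The groups did not overlap in either peak, which was a condition for naming them.

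Next came peaks annotated to Ptbp2, a splicing regulator (-2.06), Mindy3, a deubiquitinase (-2.17), Myof, the membrane-fusion protein myoferlin of myoblasts (-2.04), and C2cd4b (-1.71). The last 3 were annotated to Itga4, the integrin subunit that binds VCAM1 (-1.99), Ssr3, a subunit of the translocon-associated complex (-1.72), and Zeb2, a zinc finger repressor (-1.76), all as log2 fold changes. WT replicate 4 had the highest level in each of these 10 peaks. All 10 calls held under the 12 alternatives, which include leaving that library out. None of the promoter peaks of these 10 annotated genes passed the test.

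**Figure D4:**
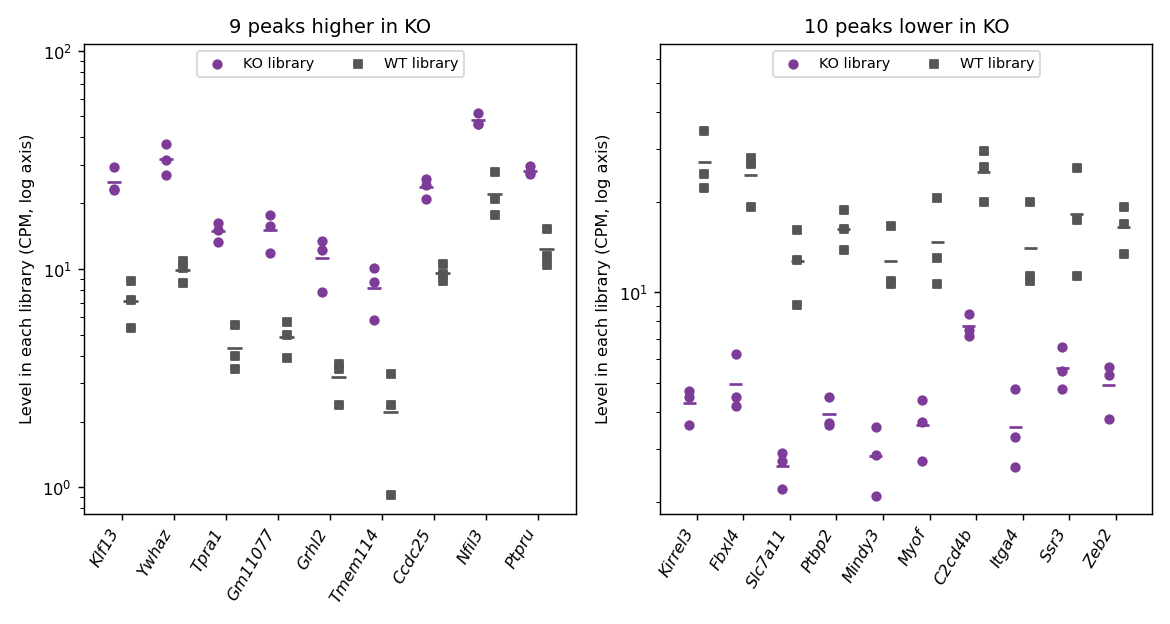
Level in each library (CPM, log axis) of 9 of the 10 distal intergenic peaks with the smallest p among those higher in KO (left panel) and of the 10 among those lower (right panel), labelled by annotated gene. Purple circles are the 3 KO libraries and grey squares the 3 WT libraries of each peak, and short lines are group means. The groups do not overlap in any of these peaks, which were chosen for that.

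The 581 calls fell to 420 annotated genes. Of these, 315 had 1 call, and of the 105 genes with 2 or more calls, 98 had them all in 1 direction. Between neighbouring distal intergenic peaks up to 5 kb apart, Pearson's r of the log2 fold changes was 0.31 over 1263 pairs, and it was 0.28 over 2377 pairs 5 to 20 kb apart, 0.21 over 1027 pairs 20 to 50 kb apart and 0.12 over 353 pairs 50 to 100 kb apart. These pairs share their libraries, so the values describe these peaks and carry no test. Up to 5 kb apart, 201 pairs had 1 peak called and 33 had both, all 33 in 1 direction. At 5 to 20 kb, 380 pairs had 1 peak called and 39 had both, 37 of them in 1 direction.

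There were 8 annotated genes with 3 or more peaks higher in KO. Cand1, which encodes an exchange factor of cullin ubiquitin ligases, had 4 of 12 peaks higher within 18.3 kb of each other, at log2 fold changes of 0.76 to 1.08. Summed over the 12, they had 143, 128 and 124 CPM in KO replicates 4, 5 and 7, against 84.0, 90.2 and 80.3 CPM in WT replicates 3, 4 and 8. The groups did not overlap in this sum, which includes the 4 calls that the gene was chosen for. Of the 12, 11 had a log2 fold change above 0, but of the 4 calls 2 were lost in 6 or more alternatives. The gene 9530068E07Rik had 4 of 5 higher and 1700016C15Rik 4 of 4. The 4 peaks of 1700016C15Rik summed to 77.0, 72.2 and 77.2 CPM in KO, against 36.1, 43.2 and 36.4 CPM in WT. As all 4 were called without overlap between the groups, their sum could not overlap either. Klf13 had 3 of 3, which summed to 59.0, 61.6 and 50.7 CPM in KO and 21.2, 25 and 29.7 CPM in WT. Of the calls of 1700016C15Rik and of Klf13, 1 each was lost in 6 alternatives.

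There were 22 annotated genes with 3 or more peaks lower in KO. Trib2, which encodes a pseudokinase, had 6 of 25 tested peaks lower, with log2 fold changes of -1.89 to -0.87, in a stretch of 56.0 kb upstream (chr12:15929152-15985103), and 1 peak higher on its other side, 199 kb downstream. The strongest of the 6 had 21.9, 19.7 and 18.5 CPM in KO, against 38.7, 45 and 25.8 CPM in WT. With the authors' factors 5 of the 6 calls were lost. Nampt, the enzyme that makes nicotinamide mononucleotide in NAD salvage, had 6 of 17 lower, all 127 to 195 kb upstream, and all its 17 peaks summed to 96.8, 90.1 and 93.4 CPM in KO, against 131, 170 and 134 CPM in WT. In this sum, which includes the 6 calls that the gene was chosen for, the WT libraries lay above the KO ones, with WT replicate 4 the highest. Of the 6 calls, 2 held in 2 or fewer of the 12 alternatives.

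Nrip1, a corepressor of nuclear receptors that restrains oxidative metabolism in muscle, had 5 of 17 lower, on both sides of the gene. The largest of them had 2.09, 1.07 and 1.83 CPM in KO, against 5.96, 10.5 and 6.18 CPM in WT (log2 fold change -2.20, SE 0.34, adjusted p = 1.82e-08). Syt17, a synaptotagmin, had 4 of 4 lower, which summed to 23.1, 24.4 and 23.4 CPM in KO, against 50.8, 64.1 and 43.8 CPM in WT, and the authors' factors ended 2 of the 4 calls. Trp63, a transcription factor of the p53 family, had 5 of 10 lower, within 40.5 kb, and 1 of the 5 held in 2 alternatives. Its promoter peak was lower too, at 17.8 ± 1.11 CPM in KO and 34.4 ± 7.26 CPM in WT (SD, n = 3 each; log2 fold change -0.95, SE 0.19, adjusted p = 6.70e-05).

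Kirrel3 had 3 of 6 peaks lower, standing next to each other at 71793, 62405 and 57640 bases upstream, with log2 fold changes of -2.68, -2.0 and -1.53. The middle one had 11.7, 10.6 and 14.5 CPM in KO, against 43.5, 61.9 and 41.7 CPM in WT. The 3 peaks farther out did not pass, with log2 fold changes of -0.52, 0.39 and -0.43, and the Kirrel3 promoter peak did not pass either (-0.35, SE 0.28, adjusted p = 0.604).

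**Figure D5:**
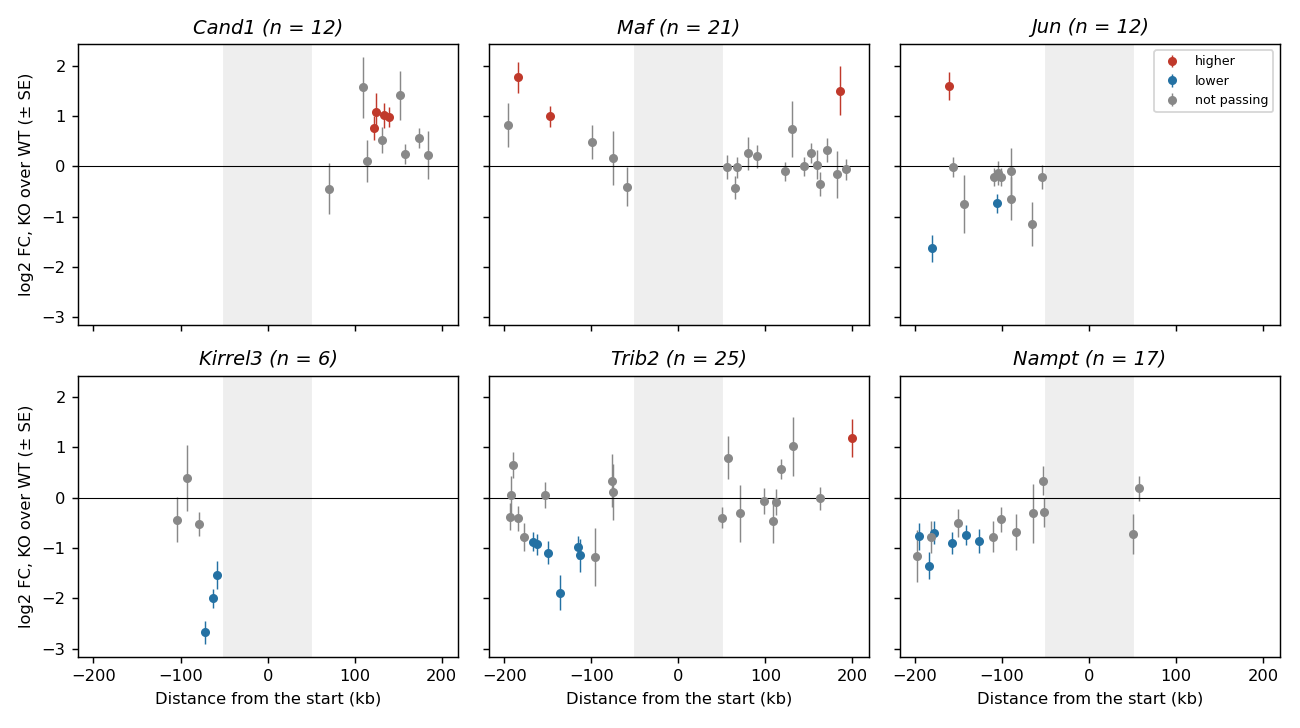
Log2 fold change of KO over WT with its SE for every tested distal intergenic peak annotated to Cand1, Maf, Jun, Kirrel3, Trib2 and Nampt, against distance from the annotated start in kb (negative is upstream). The grey band is the range within 50 kb, whose peaks are not part of the set. Higher calls (red) lie close together downstream of Cand1, and lower calls (blue) lie next to each other upstream of Kirrel3, Trib2 and Nampt.

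Peaks annotated to regulators of fast muscle fibres moved in both directions. Of 62 tested, 3 were higher and 9 lower, beside 2.77% higher and 4.23% lower of all tested peaks. Most of the lower calls, named below, were lost with the authors' factors, while the higher ones held with them. The other 50 of the 62 did not pass, and the median log2 fold change was -0.04. The 3 higher ones were annotated to Maf, a leucine zipper factor of the family that drives the fastest myosin in mouse muscle. The one 184 kb upstream of Maf (chr8:115891629-115892639), had 10.7, 8.62 and 5.94 CPM in KO, against 1.54, 2.85 and 3.02 CPM in WT (log2 fold change 1.77, SE 0.30, adjusted p = 1.06e-06). The second, which holds the Gm31037 start, had 24.4, 24.7 and 19 CPM in KO, against 12.2, 11.1 and 10.9 CPM in WT. The third overlapped between groups and was lost in 6 alternatives, and the other 18 tested Maf peaks did not pass.

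The lower ones included 3 of 5 peaks of Vgll2, a cofactor of TEAD factors that is found mainly in skeletal muscle. The strongest had 32.2, 26.7 and 20.5 CPM in KO, against 37.7, 58.8 and 34.7 CPM in WT (log2 fold change -0.73, SE 0.19, adjusted p = 0.00272), with KO below WT by a small gap, and the call was lost in 4 alternatives. The 5 summed to 68.7, 57.6 and 51.1 CPM in KO, against 88.1, 128 and 90.5 CPM in WT. Tbx15, a T-box factor of glycolytic fibres, had 2 lower peaks, and the larger one had 7.0, 7.64 and 7.95 CPM in KO, against 20.7, 25 and 13.7 CPM in WT (log2 fold change -1.40, SE 0.22, adjusted p = 6.04e-08). The smaller one overlapped between groups and was lost in 8 alternatives. The others were 2 peaks of Eya4, 1 of Eya1 and 1 of Tead1, with log2 fold changes of -1.07 to -0.68, each lost in 4 to 7 alternatives. With the authors' factors the calls of Eya4, Eya1, Tead1 and the smaller Tbx15 peak were lost. Those of the Vgll2 peaks 92.4 and 76.7 kb upstream were lost with these factors too.

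The other muscle lists are read beside the 7.01% of all tested peaks that were called in either direction. Of 24 annotated to slow-fibre regulators, 1 was higher (Prox1, log2 fold change 1.03, lost in 5 alternatives) and 1 lower (the Tead1 peak, which is on both lists). Of 31 annotated to MEF2 factors and class IIa deacetylases, 1 was lower, a weak peak 162 kb upstream of Mef2c with 1.46, 2.22 and 1.83 CPM in KO, against 4.32, 5.24 and 3.16 CPM in WT. Its log2 fold change was -1.20 (SE 0.40, adjusted p = 0.0416), and 10 of 12 alternatives lost the call. Of 27 annotated to sarcomere genes, 1 was higher (Nebl, 1.82) and 3 were lower (Xirp2, -1.07, Myom2, -0.92, and Tpm1, -0.90), of which Myom2 and Tpm1 held in 3 and 2 alternatives.

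Among 6 peaks of calcium handling genes, the 1 lower call lay 65.7 kb upstream of Pln, the inhibitor of the sarcoplasmic calcium pump. It had 10.9, 9.61 and 8.23 CPM in KO, against 16, 27.2 and 19.6 CPM in WT (log2 fold change -1.14, SE 0.21, adjusted p = 1.14e-05). The groups did not overlap, but the authors' factors ended the call. The 28 tested peaks of myogenic and satellite cell genes had 2 higher calls, at Notch3 (0.89) and Myc (0.72), lost in 4 and 5 alternatives, and none lower, with unadjusted p below 0.05 in 4 higher and 0 lower peaks and 2 calls each by DESeq2 and limma-voom. A group of 6 lists, among them nuclear lamina and heterochromatin genes, endothelial and Schwann cell markers, had no call in 39 tested peaks. There the unadjusted p was below 0.05 in 3 higher and 2 lower peaks, and DESeq2 and limma-voom made 0 calls.

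Peaks of metabolic regulators had 1 higher and 7 lower calls of 87, beside 2.77% higher and 4.23% lower of all tested peaks, and a median log2 fold change of -0.13. With the authors' factors 5 of the 7 lower calls were lost, those of Pik3r1 and Nr3c1. Of these 7, 4 were annotated to Pik3r1, the regulatory subunit of the kinase that relays insulin signals, out of 14 tested there. The one with the smallest adjusted p had 16.1, 17.5 and 19.7 CPM in KO, against 29.0, 41.0 and 31.3 CPM in WT (log2 fold change -0.93, SE 0.19, adjusted p = 0.000112). The peak of Foxo1, a transcription factor that insulin signalling restrains, had 10.2, 8.70 and 8.78 CPM in KO, against 23.6, 25.1 and 20.8 CPM in WT (log2 fold change -1.33, SE 0.21, adjusted p = 9.74e-08). The groups did not overlap in either peak. Acvr2a, an activin and myostatin receptor, had a peak at 1.04, 1.31 and 1.55 CPM in KO, against 5.55, 6.16 and 5.65 CPM in WT (log2 fold change -2.13, SE 0.39, adjusted p = 4.65e-06). The last lower call was at Nr3c1, the glucocorticoid receptor (-0.81), and the higher one at Irs2, an insulin receptor substrate (0.72), each lost in 4 or 5 alternatives.

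Developmental transcription factors, with 141 tested peaks the list with the most peaks, had 11 higher and 8 lower, with a median log2 fold change of -0.04. Over all tested peaks 2.77% were higher and 4.23% lower. The higher calls on the list included peaks annotated to Tshz3, Bcl11b, Foxn3 and Irx5 (2 peaks each), and others to Pitx1 and Sox4. The call 141 kb downstream of Foxn3 held in 6 of 12 alternatives, that 98.5 kb downstream of Tshz3 in 7 and that 105 kb upstream of Irx5 in 8. The peak 133 kb downstream of Tshz3, which encodes a zinc finger homeobox factor, had 14.7, 12.2 and 11.6 CPM in KO, against 5.55, 5.42 and 4.34 CPM in WT (log2 fold change 1.32, SE 0.25, adjusted p = 1.02e-05). The lower ones were annotated to Zeb2 (3 peaks), Prrx1, Tshz1, Foxc1, Foxp1 and Nr2f2. With the authors' factors the calls of Tshz1, Foxc1, Foxp1, Nr2f2 and the Zeb2 peak 64.2 kb upstream were lost. The Prrx1 peak, near a homeobox gene of limb mesenchyme, had 10.2, 9.52 and 11.3 CPM in KO, against 20.1, 29.6 and 15.1 CPM in WT (log2 fold change -1.07, SE 0.21, adjusted p = 3.48e-05), and its call was lost with the authors' factors.

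Of the 12 tested peaks of Jun, the AP-1 subunit, 11 had a log2 fold change below 0, with 1 higher and 2 lower calls. The one 161 kb upstream had 11, 8.95 and 10.9 CPM in KO, against 2.06, 4.04 and 4.08 CPM in WT (log2 fold change 1.6, SE 0.27, adjusted p = 1.01e-06). The next one, 181 kb upstream, had 4.28, 2.96 and 3.11 CPM in KO, against 11.1, 11.9 and 8.81 CPM in WT (log2 fold change -1.63, SE 0.27, adjusted p = 3.29e-07). In both peaks the groups stood apart, in opposite directions. The other lower call, 106 kb upstream (-0.73), was lost in 2 alternatives. Beside 2.77% higher and 4.23% lower of all tested peaks, growth factors and their antagonists had 3 higher (Wnt5a, Igfbp5 and Tgfbr2) and 4 lower (2 each of Tgfb2 and Spry2) of 122. Of these, the Spry2 calls held in 0 and 7 of 12 alternatives, the Tgfbr2 call in 5 and 1 of the Tgfb2 calls in 1. The Tgfb2 peak 172 kb downstream had 1.67, 1.56 and 1.65 CPM in KO, against 5.96, 7.72 and 7.63 CPM in WT (log2 fold change -2.12, SE 0.34, adjusted p = 1.91e-07).

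There were 5 distal intergenic peaks that overlapped a microRNA gene of the RefSeq table used, which may lack some, and 1 of them was called. It covered Mir30c-2, 90.8 kb from the start of Ogfrl1 (chr1:23291685-23293068). It had 3.76, 2.05 and 1.74 CPM in KO, against 5.24, 7.35 and 3.16 CPM in WT, and its groups overlapped. Its log2 fold change was -1.09 (SE 0.35, adjusted p = 0.0276), and 7 of 12 alternatives lost the call. Its mature sequences are shown beside 1 each of Mir1a-1 and Mir193a, whose peaks did not pass the test, with the seed (bases 2 to 8) in capitals.
mmu-miR-30c-5p (chr1:23291714-23291736, plus strand): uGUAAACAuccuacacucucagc
mmu-miR-30c-2-3p (chr1:23291754-23291775, plus strand): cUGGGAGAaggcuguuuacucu
mmu-miR-1a-1-5p (chr2:180389057-180389079, plus strand): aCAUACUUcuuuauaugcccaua
mmu-miR-193a-3p (chr11:79712009-79712030, plus strand): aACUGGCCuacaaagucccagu

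In the RefSeq table used, 4 mature microRNAs have the seed of miR-30c-5p, namely miR-30a-5p, miR-30c-5p, miR-30e-5p and miR-384-5p. That table may lack further microRNAs with this seed. The peak at Mir193a had 22.6, 25.4 and 31.8 CPM in KO, against 29.9, 25.2 and 25.8 CPM in WT, and the groups lay on top of each other (log2 fold change -0.02, SE 0.19, adjusted p = 0.981). The Mir1a-1hg transcript, host of a microRNA abundant in muscle, held 5 distal intergenic peaks, annotated to Gata5 by its start. The peak over the Mir1a-1hg start had 68.6, 78.9 and 76.6 CPM in KO, against 78.5, 91.5 and 62.3 CPM in WT (log2 fold change -0.05, SE 0.18, adjusted p = 0.935). The 5 had log2 fold changes of -0.40 to -0.05, none passed, and KO and WT overlapped in each.

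Of all 14319 tested promoter peaks within 1 kb of a start, 1.05% were higher and 1.03% lower in KO. Among 127 annotated genes with a higher distal peak and a tested promoter peak within 1 kb, the promoter was higher in 3 (Tlr5, Lpin1 and Ppp1r3b) and lower in none. Among 222 with a lower distal peak, it was lower in 9 (Cep85l, Angpt1, Trp63, Ctxn3, Xirp2, Tbl1xr1, Ttll7, Xrcc2 and Ppp1r3a) and higher in 1 (Tln2). Among 1775 genes whose distal peaks did not pass, 14 promoters were higher and 26 lower. The promoter of Ppp1r3a, which targets protein phosphatase 1 to muscle glycogen, had 14.5 ± 0.778 CPM in KO and 32.9 ± 12.5 CPM in WT (SD, n = 3 each; log2 fold change -1.19, SE 0.20, adjusted p = 3.58e-07). Of its 11 distal peaks, 3 were lower. The promoter of Lpin1, a phosphatidate phosphatase of lipid synthesis, had 52.3 ± 2.99 CPM in KO and 33.3 ± 2.92 CPM in WT (SD, n = 3 each; log2 fold change 0.65, SE 0.18, adjusted p = 0.00905).

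The authors' deposited table gives fewer losses. At its adjusted p below 0.05, 192 of the 6134 distal intergenic peaks with an adjusted p were higher in KO, where 2.44% of all its peaks with an adjusted p were higher. Of the same 6134, 83 were lower, where 0.872% of all its peaks were. In that table the shares of the distal intergenic peaks were thus above those of all peaks in both directions. Of the 207 higher calls by edgeR 177 (85.5%) are also higher there, which is 92.2% of the authors' own. Of the 374 lower calls 83 (22.2%) are also lower there, which is 100% of the authors' own.

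The 3 peaks with the highest levels did not pass the test. The one annotated to Tcp10c had 1134, 905 and 955 CPM in KO, against 1240, 1084 and 1550 CPM in WT (log2 fold change -0.37, SE 0.17, adjusted p = 0.201). The one annotated to Rab10 had 870, 700 and 849 CPM in KO, against 886, 735 and 1299 CPM in WT. The one annotated to Axin2 had 438, 500 and 442 CPM in KO, against 533, 648 and 443 CPM in WT. The groups overlapped in all 3, and their levels may include reads of near-identical copies, which was not tested, so these values are uncertain. At the edges of the distance range, the peaks just inside were annotated to Spryd7 and Nenf, both 50011 bases away, with log2 fold changes of -0.25 and 1.25, and to Dysf and Rab10 at 199957 and 199976 bases, with 0.04 and -0.27. The peaks just outside were annotated to Zhx2 (49989 bases, 0.64) and Tmem184c (49996 bases, not tested for low counts) and to Lpp (200003 bases, -0.04) and Fam43a (200009 bases, 0.09). At the width limit, those just inside were annotated to Slc37a3 (2491 bases wide, 0.36) and Csrp1 (2489 bases, -0.15), and those just outside to Tmem65 (2500 bases, 0.01) and Pgrmc2 (2506 bases, 0.08).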

How the data were processed

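ATAC-seq was measured in 3 KO and 3 WT libraries. Per the submitters' processing notes, bedtools, BWA, deepTools, DESeq2 1.6.3, MACS2, Trimmomatic and the build GRCm38 were used. The authors deposited whole-number counts per peak, a normalized signal (each count divided by 1 factor per library), log2 fold changes, raw and adjusted p-values, a peak score, annotated genes and distances. The sources used here do not give the counting tool or any read shift.

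Counts of all peaks were tested with edgeR 4.0.16 in R 4.3.3 (quasi-likelihood test, two-sided, TMM, filterByExpr with minimum count 10 and minimum total 15), and p-values were Benjamini-Hochberg adjusted over the 73896 tested peaks. SE is the size of the log2 fold change divided by the square root of F. The procedure was run on simulated counts drawn from its own fitted means and dispersions. Such counts cannot show how the real calls depend on the scaling or on single libraries. Total counts in peaks were 9346968 to 12061822 in KO and 7608514 to 11575061 in WT, with a median of 41 to 49 counts per distal intergenic peak in KO and 37 to 44 in WT, which limits precision in the weakest peaks. Mitochondrial DNA took 5.23% to 8.32% of counts in KO and 5.85% to 11.6% in WT. The common biological coefficient of variation was 0.201. Alternatives were other scalings, no filter, DESeq2 1.42.0, limma-voom (limma 3.58.1), adjusted p below 0.01, RefSeq distances and leaving out each library. Named peaks are the 10 with the smallest p in each direction whose groups do not overlap (1 per gene), the peaks of the 5 genes with the most calls in each direction, the 3 highest in level and the called peaks of 21 gene lists. Kirrel3, Jun, Gata5, Ppp1r3a and Lpin1 peaks beyond that rule, and the second and later list peaks, were chosen after their values were seen. The set of peaks, the lists and the tests were chosen with earlier results of these data known. Some peaks that these rules name are not reported here. Sequences are from RefSeq (GRCm38.p6).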

Additional observations from a re-analysis of the deposited data

How the results depend on the processing

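The median log2 fold change of the distal intergenic peaks stayed below that of all tested peaks in every setting run, with a difference of -0.12 to -0.02 when 1 library was left out and -0.07 with all. Higher calls numbered 207 and lower calls 374 with all libraries. Leaving out 1 library gave 111 to 253 higher and 186 to 363 lower calls, with 111 higher without KO replicate 5, 115 without KO replicate 4 and 129 without WT replicate 3, and 190 lower without KO replicate 5 and 186 without WT replicate 4. Genes with 3 or more calls (8 higher and 22 lower) then numbered 3 to 10 and 7 to 24. With the authors' factors there were 104 lower calls and 3 such genes lower, and the authors' deposited table has 83 lower. DESeq2 gave 14 such genes lower and limma-voom 5 higher. At an adjusted p below 0.01 there were 117 higher and 235 lower calls and 4 and 11 such genes, as a stricter threshold must give fewer. By distance to the RefSeq starts used, a set that lacks some starts, 109 calls were higher and 294 lower. The balance of calls turned with the authors' factors (197 higher, 104 lower), in the authors' deposited table (192 higher, 83 lower) and without WT replicate 4 (192 higher, 186 lower). Among all tested peaks it turned too, with 1620 higher and 752 lower with the authors' factors and 2230 higher and 1408 lower without WT replicate 4. The median of these peaks, -0.08 with all libraries, was 0.13 with the authors' factors and 0.02 without WT replicate 8. In none of the 12 fits was a called peak called in the opposite direction. The causes were not tested. Of 140 called peaks with a name in the lists or rules, 57 kept their call in all 12 fits and 15 in fewer than 6. The alternatives with the authors' deposited table, with chromosomes 1 to 19 as the denominator and without RefSeq spans were chosen after seeing the data. The mean of log2 CPM in place of summed counts was not run for the share of counts, which it cannot give. No paired analysis was possible because the groups share 1 replicate number, 4. Depth limits the weakest 20% of the peaks, where 3 were called higher and 7 lower of 1304.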
